A study of Mus musculus with 8 samples.

Results

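Inhibitory receptors are surface proteins that restrain an activated T cell, and 10 of their genes were examined here: *Pdcd1*, *Ctla4*, *Cd244*, *Lag3*, *Havcr2*, *Tigit*, *Cd160*, *Btla*, *Cd200* and *Cd101*. They were chosen by symbol, as a list of known receptors, from the 48321 genes listed for each library. The choice was made with earlier results of these data known. Of the 10, 9 were among the 12597 genes that passed the filter on low counts and were tested. *Lag3* did not pass and has no test in that fit.

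The libraries were made from sorted CD8+ T cells of the spleen of C57BL/6 mice. The series names the mice as Satb1 F/F; E8I-cre, in which a Cre recombinase driven by an enhancer of *Cd8a* acts in mature cells of the CD8 lineage, where it is meant to remove floxed *Satb1*. SATB1 is a DNA-binding organizer of chromatin in the nuclei of T cells. The labels give each library as WT or KO and as Day_0 or Day_5, with 2 libraries in each of the 4 groups. They do not say whether the WT mice carried the floxed alleles or the Cre, how old the mice were, or whether replicate libraries came from separate mice, so the p-values measure only the spread between these libraries, which may be technical. The series describes the CD8+ T cells as cultured and stimulated in vitro, without naming the agent in the sources used here, and day 5 is taken as the cultured state.

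Several of these receptors, such as PD-1 and CTLA-4, are known to be switched on when a T cell meets its antigen, while others, such as BTLA, are already present on resting T cells. The joint, lasting expression of several of them is a known feature of exhausted CD8+ T cells in chronic infection and in tumors. Most of them bind ligands on antigen-presenting or target cells and recruit phosphatases that turn down signaling from the antigen receptor. PD-1, the product of *Pdcd1*, and BTLA carry tyrosine motifs for such phosphatases, whereas CTLA-4 competes with the costimulatory receptor CD28 for its ligands CD80 and CD86.

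Each library held between 4170126 and 11117971 counts in genes, so a count of 3, taken here as the lowest level to read, corresponded to between 0.257 and 0.723 CPM, the counts scaled to a common library size that was corrected by the trimmed mean of M-values (TMM). The targeted gene was read first. *Satb1* stood at 97.8 and 91.6 CPM in WT and at 144 and 125 CPM in KO at day 0, and at 96.5 and 116 CPM in WT and 56.5 and 62.3 CPM in KO at day 5. At day 0 the KO libraries were thus both above the WT libraries, against their label (log2 fold change 0.51, SE 0.15, false discovery rate (FDR) 0.125 by edgeR's quasi-likelihood test with Benjamini-Hochberg adjustment over 12597 genes). At day 5 they were both below (-0.84, SE 0.15, FDR 0.0162), and the call was lost without WT replicate 2 or without either KO library of that day, with log2 fold changes of -0.70, -0.77 and -0.91. The deleted exons are not named, and a count over the whole gene includes reads from any transcript that remains. The groups are therefore called WT and KO-labelled. CD8 T cell markers summed to between 7958 and 13034 CPM in each library, and *Cd8a* alone had between 734 and 1455 CPM. *Cd4* stood between 0 and 0.964 CPM, and *Ms4a1* of B cells, *Adgre1* of macrophages and all 3 erythroid markers had at most 3 counts in any library of the series. The B cell list summed to between 67.4 and 166 CPM, nearly all of it *Cd79b*, and the natural killer, myeloid and dendritic lists to at most 57.5, 19.0 and 39.7 CPM.

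The promoters of the receptors whose genotype differences were called are shown first, because the genotype comparisons turn on these genes. For 9 of the 10 genes, all but *Lag3*, the RefSeq set for GRCm38.p6 held the 250 bases before a start site, in 10 windows since *Cd160* has a pair. The windows below lie at chr1:94052554-94052803 (minus strand) for *Pdcd1*, chr1:171558943-171559192 (plus strand) for *Cd244*, chr3:96829352-96829601 (minus strand) for the upstream start of *Cd160*, chr16:45224087-45224336 (plus strand) for *Btla* and chr1:60908775-60909024 (plus strand) for *Ctla4*. Each is written 5′ to 3′ on the strand of the gene, ending at the base before the start. Capitals mark, on either strand, the letters TGANTCA of AP-1, GGAAA of NFAT and TGTGGT of RUNX, factors known to act on genes of activated T cells. The same search covered AAAGGTCA, a site of the NR4A receptors, and AGGTGTGA, a T-box site.
*Pdcd1*: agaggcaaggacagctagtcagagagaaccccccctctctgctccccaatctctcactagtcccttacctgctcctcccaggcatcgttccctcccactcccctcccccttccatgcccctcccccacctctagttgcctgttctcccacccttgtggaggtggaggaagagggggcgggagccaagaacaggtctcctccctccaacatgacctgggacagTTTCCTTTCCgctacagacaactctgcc
*Cd244*: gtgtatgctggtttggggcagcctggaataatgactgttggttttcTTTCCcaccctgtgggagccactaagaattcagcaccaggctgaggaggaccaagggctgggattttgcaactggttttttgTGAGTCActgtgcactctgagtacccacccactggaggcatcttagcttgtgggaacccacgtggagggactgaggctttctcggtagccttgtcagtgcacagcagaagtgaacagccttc
*Cd160*: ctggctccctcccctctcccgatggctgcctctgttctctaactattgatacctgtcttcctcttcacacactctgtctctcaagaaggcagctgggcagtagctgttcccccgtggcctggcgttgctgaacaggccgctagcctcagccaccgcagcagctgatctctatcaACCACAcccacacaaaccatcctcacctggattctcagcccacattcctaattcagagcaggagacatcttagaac
*Btla*: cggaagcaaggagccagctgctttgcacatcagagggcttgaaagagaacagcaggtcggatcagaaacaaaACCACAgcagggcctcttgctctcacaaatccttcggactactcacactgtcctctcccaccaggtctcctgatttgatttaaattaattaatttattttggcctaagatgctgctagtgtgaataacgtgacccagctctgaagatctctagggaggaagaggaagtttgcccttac
*Ctla4*: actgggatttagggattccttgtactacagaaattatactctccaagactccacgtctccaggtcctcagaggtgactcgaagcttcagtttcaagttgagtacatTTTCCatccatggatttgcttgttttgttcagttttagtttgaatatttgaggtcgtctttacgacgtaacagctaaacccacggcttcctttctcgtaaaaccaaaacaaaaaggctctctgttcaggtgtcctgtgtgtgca

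The NFAT letters stood in 6 of the 10 windows, against 55.6% of all 32851 promoter windows of this length. The RUNX letters were in 6, with both *Cd160* windows among them, against 14.0%. The AP-1 letters were in 2, those of *Cd244* and *Havcr2*, against 6.75%. The NR4A and T-box letters were in 0 of the 10 windows, against 1.34% and 1.12% of all. In the *Pdcd1* window the NFAT letters occurred in a pair, close to the start, and in the *Cd244* window they stood upstream of the AP-1 match. The base composition differed widely between members. A and T made up 39.6% of the *Pdcd1* window and 60.0% of the *Tigit* window, with a median of 47.6% over all windows. Unlike the other windows, that of *Tigit* was not followed by bases found in a transcript of its gene in the GENCODE annotation. These matches describe the letters of the windows only.

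**Figure D1:**
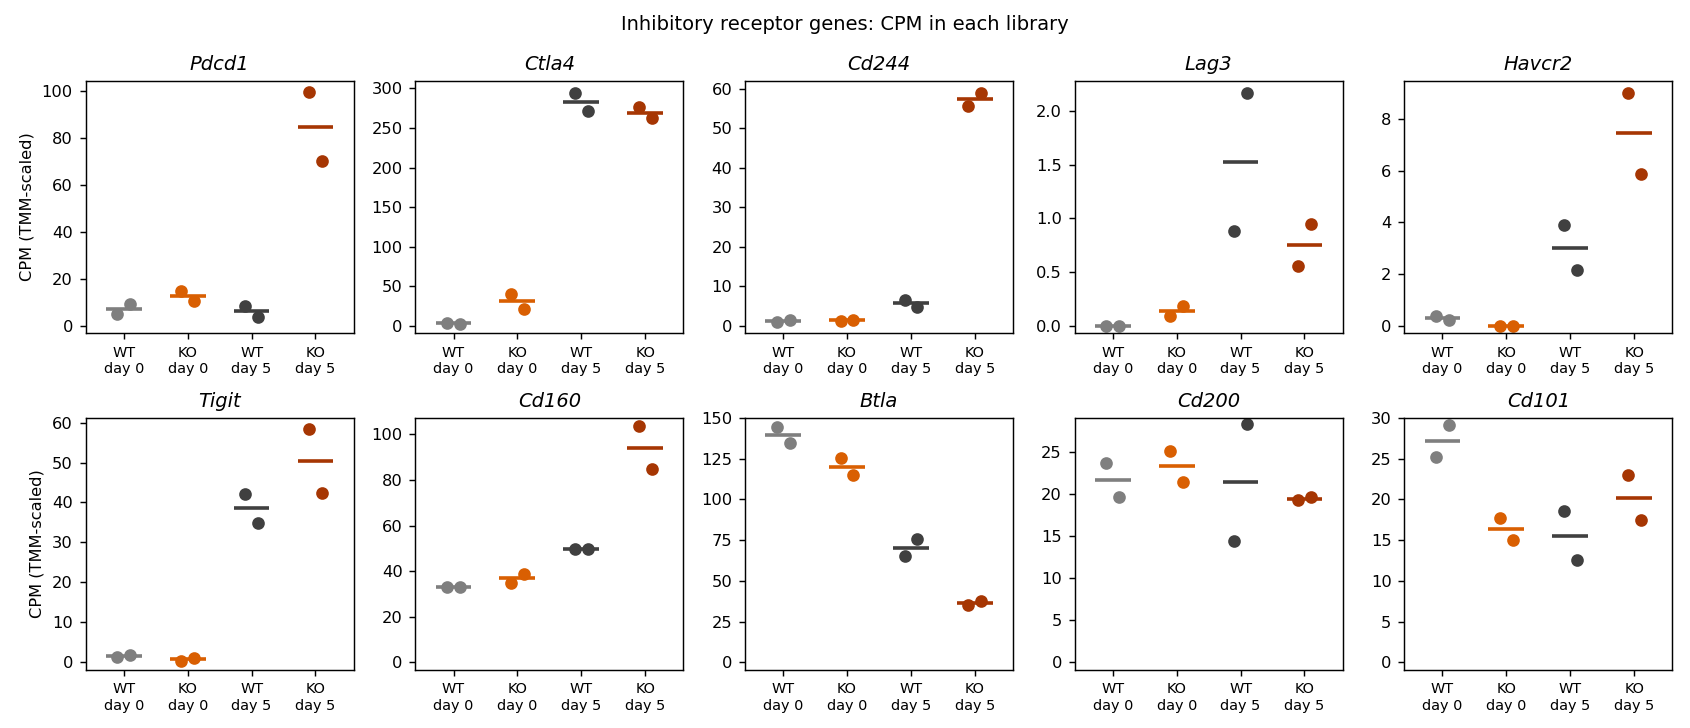
CPM (TMM-scaled) of each of the 10 receptor genes in the 8 libraries, 1 panel per gene, each with its own linear axis from 0; points are libraries and bars are means of 2. *Pdcd1* and *Cd244* stand high only in the 2 day 5 KO-labelled libraries, *Ctla4* is high in all 4 day 5 libraries, and *Btla* is lowest in the day 5 KO-labelled libraries.

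The order of the genes was compared per kilobase of exon (CPM per kb). Before culture, *Btla*, the receptor that binds HVEM on other cells, was the highest of the 10 in both genotypes, at 41.1 ± 2.07 CPM per kb in WT and 35.4 ± 2.14 in the KO-labelled libraries (SD, n = 2). *Cd160*, which binds the same ligand, followed at 12.5 ± 0.0689 in WT. *Ctla4* was seventh in WT at 1.27 ± 0.154 CPM per kb, while in the KO-labelled libraries it reached 13.3 ± 5.66 and overlapped with *Cd160* at 13.9 ± 1.02. After 5 days *Ctla4* was the highest in both genotypes, at 122 ± 6.95 in WT and 116 ± 4.21 in the KO-labelled libraries, and *Tigit* was next at 41.9 ± 5.55 and 54.8 ± 12.2. The genotypes then differed in the third place. In WT it was held by *Btla* at 20.7 ± 2.20 CPM per kb, with *Pdcd1* seventh at 3.15 ± 1.62. In the KO-labelled libraries it was held by *Pdcd1* at 43.8 ± 10.8, whose libraries overlapped with those of *Tigit* above it and *Cd160* below it, and *Btla* came after *Cd244* at 10.7 ± 0.530. *Lag3* and *Havcr2* were in the last 2 places at day 0 and day 5 in both genotypes. In WT at day 5 the libraries of *Cd244*, *Havcr2* and *Lag3* overlapped in turn, at means of 1.16, 1.11 and 0.723 CPM per kb.

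Summed over the 10 genes, the receptors reached 238 and 232 CPM in WT and 260 and 225 CPM in the KO-labelled libraries at day 0. At day 5 the sums were 504 and 486 CPM in WT and 680 and 600 CPM in the KO-labelled libraries. The make-up of the sum changed more than its size. *Btla* gave between 48.2% and 60.8% of it in the 4 day 0 libraries and between 5.17% and 15.6% in the 4 day 5 libraries. *Ctla4* gave 1.35% and 1.17% in WT at day 0, 15.5% and 9.61% in the KO-labelled libraries at day 0, 58.4% and 55.9% in WT at day 5, and 40.6% and 43.7% in the KO-labelled libraries at day 5. Without *Ctla4*, the day 5 sums were 210 and 214 CPM in WT and 404 and 338 CPM in the KO-labelled libraries.

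**Figure D2:**
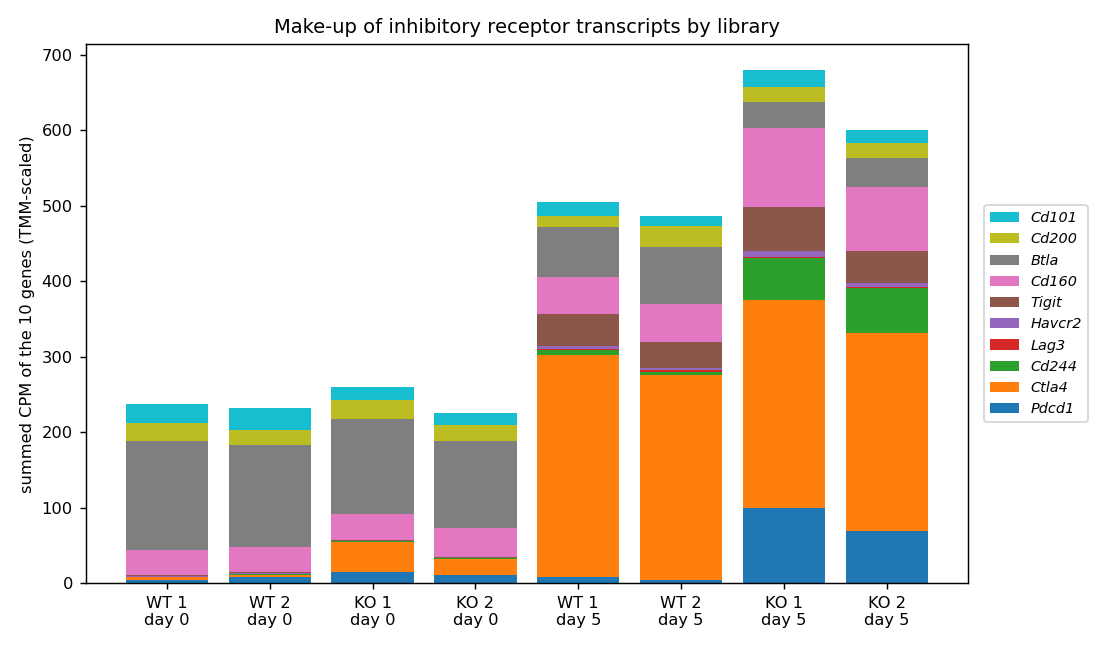
Summed CPM (TMM-scaled) of the 10 receptor genes in each of the 8 libraries, stacked by gene on a linear axis from 0. *Btla* gives the largest segment at day 0, *Ctla4* gives the largest segment at day 5, and the *Pdcd1* and *Cd244* segments are large only in the 2 KO-labelled bars at day 5.

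The first comparison asked which receptors differed between the genotypes before culture. Of the 9 tested, 1 was called, in the direction of higher in the KO-labelled libraries, where 1.80% of all tested genes were called, 0.913% higher and 0.889% lower. That gene was *Ctla4*. Its CPM was 3.22 and 2.71 in WT (18 and 12 counts) and 40.3 and 21.7 in the KO-labelled libraries (470 and 118 counts). Both KO-labelled libraries stood far above both WT libraries, and they also differed from each other. The log2 fold change was 3.40 (SE 0.32, FDR 0.000106), a 10.6-fold difference, and it was called in all 17 alternative settings, between 2.84 and 3.78. At this day *Satb1* itself was not lower in the KO-labelled libraries.

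Markers of regulatory T cells, a lineage that carries CTLA-4 constitutively, moved with *Ctla4* at day 0. The 3 markers *Foxp3*, *Il2ra* and *Ikzf2* summed to between 26.5 and 29.2 CPM in WT and between 128 and 136 CPM in the KO-labelled libraries, and 2 of the 3 were called higher. *Foxp3*, the lineage factor, was at 9.76 ± 0.904 CPM in WT and 54.8 ± 15.6 in the KO-labelled libraries (SD, n = 2). *Il2ra*, the high-affinity chain of the IL-2 receptor, was at 1.79 and 3.17 CPM in WT and 7.38 and 3.67 CPM in the KO-labelled libraries. The gamma delta T cell list summed to between 62.2 and 94.1 CPM in WT and between 159 and 161 CPM in the KO-labelled libraries, with 3 of 4 tested markers called higher, while *Trdc* overlapped between the genotypes and *Sox13* was at 0.678 CPM or less. The 3 markers of CD4 T cells, *Cd4*, *Cd40lg* and *Zbtb7b*, summed to between 1.36 and 3.58 CPM in WT and between 6.06 and 6.26 CPM in the KO-labelled libraries. Of these, *Cd40lg*, the ligand of CD40, was at 1.61 and 1.13 CPM in WT and 5.66 and 3.85 CPM in the KO-labelled libraries (log2 fold change 1.79, SE 0.52, FDR 0.134). Neither of the 2 tested genes of that list was called by edgeR or DESeq2, and 1 had an unadjusted p under 0.05. In bulk libraries a change in the number of cells of a type and a change in RNA per cell cannot be told apart. The calls of *Foxp3* and *Ikzf2* were lost without WT replicate 1 or 2 of day 0, with log2 fold changes of *Foxp3* still at 2.20 or more. The call of *Tcrg-C1*, which had 1.80 CPM on average in WT, held in 12 of 17 alternatives and was lost without either WT library or KO-labelled replicate 2 of day 0, with the newer quasi-likelihood form and with only the compared libraries. The part of these markers in the *Ctla4* difference was not tested.

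The other 8 tested receptors were not called at day 0. *Pdcd1* was at 5.01 and 9.04 CPM in WT and 14.8 and 10.6 CPM in the KO-labelled libraries, which did not overlap (log2 fold change 0.91, SE 0.36, FDR 0.273). *Cd101*, a receptor of the immunoglobulin superfamily on activated and tissue T cells, was at 25.2 and 29.2 CPM in WT and 17.7 and 15.05 CPM in the KO-labelled libraries (-0.72, SE 0.24, FDR 0.192). *Tigit*, which binds the poliovirus receptor CD155, rested on 5 to 8 counts in each library (-1.26, SE 0.55, FDR 0.331, and -0.54 without KO-labelled replicate 1). *Cd244* rested on 5 to 15 counts and overlapped between the genotypes (0.29, SE 0.44, FDR 0.870). *Cd160* (0.15, SE 0.17), *Btla* (-0.22, SE 0.14) and *Cd200* (0.11, SE 0.27), the last a ligand-like glycoprotein that signals through its receptor on myeloid cells, had changes within 2 standard errors. *Havcr2*, which encodes TIM-3, had 2 and 1 counts in WT and 0 in both KO-labelled libraries, and *Lag3*, whose product binds MHC class II, had 0 in both WT libraries and 1 in each KO-labelled library, so neither could be compared at this depth. For *Havcr2* a count of 0 allows up to 0.257 and 0.551 CPM in the KO-labelled libraries.

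The second comparison asked the same after 5 days. Of the 9 tested receptors, 4 were called, where 1.63% of all tested genes were. *Pdcd1*, *Cd244* and *Cd160* were higher in the KO-labelled libraries, with 1.31% of all genes called in that direction, and *Btla* was lower, with 0.318% called in that direction. The median log2 fold change of the 8 tested receptors other than *Havcr2* was 0.37, against 0 over all tested genes.

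*Pdcd1*, which encodes PD-1, had 47 and 16 counts in WT and 540 and 369 in the KO-labelled libraries. In CPM these were 8.29 and 3.86 against 99.3 and 69.9, so that each KO-labelled library was above each WT library by a wide margin. The log2 fold change was 3.75 (SE 0.34, FDR 0.000241), a 13.4-fold difference, called in all 17 alternatives between 3.35 and 4.46, the last without WT replicate 1 of day 5. The gene lies on chromosome 1 from 94038305 to 94052553 on the minus strand (GRCm38), and its promoter window is the first printed above.

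*Cd244* encodes the SLAM family receptor 2B4, which binds CD48 and signals through the adaptor SAP and through phosphatases. It had 6.53 and 4.82 CPM in WT and 55.6 and 59.1 CPM in the KO-labelled libraries, where the replicates lay close together. The log2 fold change was 3.31 (SE 0.25, FDR 5.69e-05), a 9.94-fold difference, called in all 17 alternatives between 3.13 and 3.57.

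*Cd160*, a GPI-anchored or transmembrane receptor of killer cells that binds HVEM, had 49.7 and 49.9 CPM in WT and 104 and 84.6 CPM in the KO-labelled libraries. The increase was smaller than those of *Pdcd1* and *Cd244* and its 2 groups did not overlap (log2 fold change 0.92, SE 0.16, FDR 0.0142). The call was lost when any 1 of the 4 day 5 libraries was left out, with an FDR of up to 0.179 and a log2 fold change still between 0.77 and 1.06. Exons of *Pdzk1* on the other strand cover 2.57% of its exon length.

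*Btla* moved the other way, at 65.1 and 75.7 CPM in WT and 35.1 and 37.7 CPM in the KO-labelled libraries (log2 fold change -0.95, SE 0.15, FDR 0.00780), a 1.93-fold difference between groups that did not overlap. The call was lost when either KO-labelled library of day 5 was left out, with an FDR of up to 0.107 and log2 fold changes no nearer to 0 than -0.90. *Cd160* and *Btla* thus differed in opposite directions although their products share a ligand.

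*Ctla4*, the gene called at day 0, was not called at day 5. It had 295 and 272 CPM in WT and 276 and 262 CPM in the KO-labelled libraries, which overlapped (log2 fold change -0.07, SE 0.20, FDR 0.917). *Tigit* was at 42.2 and 34.9 CPM in WT and 58.3 and 42.4 CPM in the KO-labelled libraries (0.38, SE 0.23, FDR 0.501). *Havcr2* was at 3.88 and 2.17 CPM in WT and 9.01 and 5.87 CPM in the KO-labelled libraries, apart but on only 9 to 49 counts (1.27, SE 0.49, FDR 0.255). *Cd101* overlapped between the genotypes (0.37, SE 0.25, FDR 0.562). *Cd200* was at 14.5 and 28.4 CPM in WT, a spread that enclosed the 19.3 and 19.7 CPM of the KO-labelled libraries (-0.12, SE 0.28, FDR 0.906). *Lag3* had 5 and 9 counts in WT and 3 and 5 in the KO-labelled libraries.

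**Figure D3:**
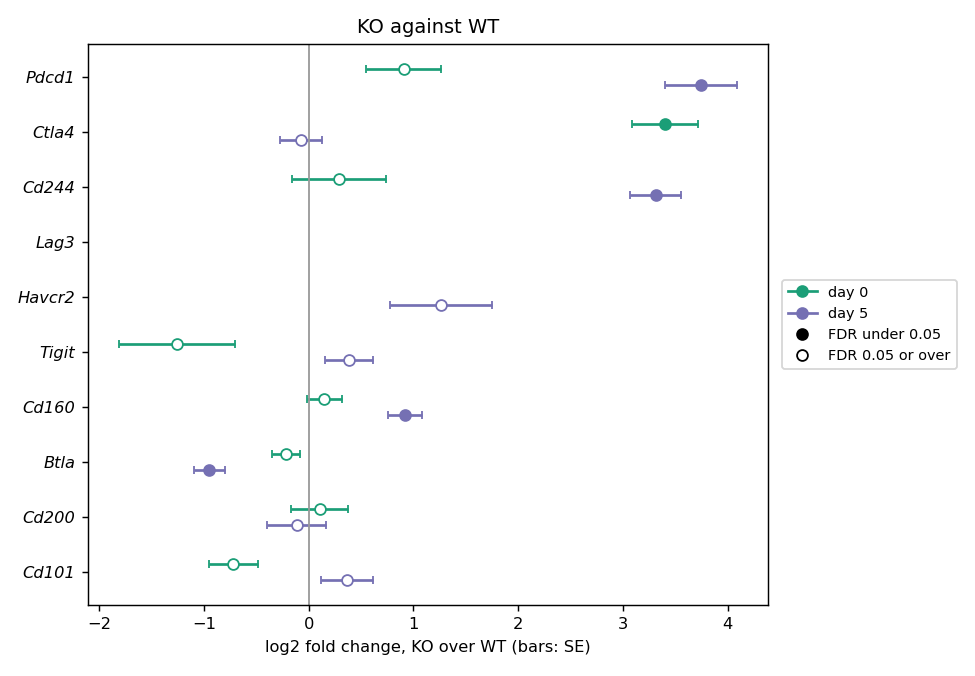
Log2 fold change of each receptor gene, KO-labelled libraries over WT, at day 0 and day 5 from the edgeR fit, with bars of 1 SE; filled points have an FDR under 0.05. *Ctla4* is filled at day 0 only (3.40), and *Pdcd1* (3.75), *Cd244* (3.31), *Cd160* (0.92) and *Btla* (-0.95) are filled at day 5 only; *Lag3* (not tested) and *Havcr2* at day 0 (at most 2 counts) have no point.

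Marker lists were also read at day 5. The list for activated or dividing cells had 0 of 5 genes called by edgeR, 0 at an unadjusted p under 0.05 and 0 by DESeq2, and summed to between 7483 and 8308 CPM in WT and between 7404 and 7659 CPM in the KO-labelled libraries. The regulatory T cell list overlapped, at 1796 to 2169 CPM in WT and 1695 to 2069 CPM in the KO-labelled libraries, nearly all of it *Il2ra*, while *Foxp3* alone was called higher (16.7 ± 10.02 against 56.8 ± 7.23 CPM, FDR 0.0193), a call that held in 12 of 17 alternatives and was lost without WT replicate 2 of day 5 and without either KO-labelled library of day 5 or WT library of day 0. The gamma delta T cell list was at 321 to 347 CPM in WT and 514 to 611 CPM in the KO-labelled libraries. Of its 4 tested markers 2, *Tcrg-C2* and *Tcrg-C4*, were called higher except without KO-labelled replicate 2. The other 2 overlapped between the genotypes. *Tcrg-C1* was at 107 and 79.5 CPM in WT and 87.7 and 98.1 CPM in the KO-labelled libraries. *Trdc* was at 27.3 and 45.3 CPM in WT and 29.4 and 21.4 CPM in the KO-labelled libraries. *Ncr1* of natural killer cells and *Ms4a1* had at most 3 counts in each day 5 library. The part of the regulatory and gamma delta markers in the 4 called receptors was not tested.

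The culture comparisons asked how each receptor changed from day 0 to day 5 within a genotype. In WT, 7 of the 9 tested receptors were called, 5 higher and 2 lower, where 48.3% of all tested genes were called, 24.7% higher and 23.6% lower. In the KO-labelled libraries, 7 were called, 6 higher and 1 lower, against 50.2%, with 26.2% higher and 24.0% lower. *Havcr2*, *Tigit* and *Cd244* passed the filter on low counts only through the day 5 libraries, where they are high, so that their place in these counts is no support for a rise of the list. Of the other 6 tested, WT cells had 2 calls upward and 2 downward, and the KO-labelled cells had 3 upward and 1 downward. Scaling by library totals shifted the median of all genes by -0.14 and -0.18 and an offset for GC content and length by -0.15 and -0.16, so small culture changes below are relative to those shifts.

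*Ctla4* and *Tigit* rose steeply in both genotypes. *Ctla4* went from 2.97 ± 0.358 to 283 ± 16.2 CPM in WT (SD, n = 2; log2 fold change 6.56, SE 0.30, FDR 3.42e-09) and from 31.0 ± 13.2 to 269 ± 9.80 CPM in the KO-labelled libraries (3.08, SE 0.22, FDR 1.85e-07). The end levels overlapped and the start levels did not. *Tigit* went from 1.62 ± 0.267 to 38.5 ± 5.10 CPM in WT (4.57, SE 0.34, FDR 3.10e-07) and from 0.765 ± 0.475 to 50.4 ± 11.2 CPM in the KO-labelled libraries (6.22, SE 0.36, FDR 2.32e-08). The second value was 5.50 without replicate 1 and 6.81 without replicate 2 of the KO-labelled libraries of day 0. The first of *Ctla4* was 5.97 once GC content and length were offset.

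*Cd244* rose by 2.36 on the log2 scale in WT (SE 0.38, FDR 0.000236) and by 5.38 in the KO-labelled libraries (SE 0.28, FDR 9.74e-09), from nearly the same start of 1.13 ± 0.327 and 1.38 ± 0.128 CPM. *Pdcd1* was at 7.03 ± 2.85 CPM before and 6.07 ± 3.14 CPM after culture in WT, with overlapping libraries (-0.13, SE 0.40, FDR 0.808, and -0.81 without WT replicate 1 of day 5), while it rose from 12.7 ± 2.91 to 84.6 ± 20.8 CPM in the KO-labelled libraries (2.71, SE 0.30, FDR 1.19e-05). *Cd160* rose in the KO-labelled libraries (1.36, SE 0.16, FDR 1.81e-05). In WT its rise from 33.1 ± 0.182 to 49.8 ± 0.102 CPM (0.59, SE 0.17, FDR 0.0116) was no longer called once GC content and length were offset (0.16, FDR 0.444) or without either WT library of day 0 (FDR 0.0559 and 0.0575).

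*Btla* fell in both genotypes, from 140 ± 7.03 to 70.4 ± 7.48 CPM in WT (-0.99, SE 0.14, FDR 9.50e-05) and from 120 ± 7.26 to 36.4 ± 1.80 CPM in the KO-labelled libraries (-1.72, SE 0.15, FDR 9.18e-07). *Cd101* fell in WT, from 27.2 ± 2.79 to 15.5 ± 4.23 CPM (-0.79, SE 0.25, FDR 0.0181). That call was lost without WT replicate 2 of either day, at -0.68 and -0.52. In the KO-labelled libraries *Cd101* overlapped between the days, at 16.4 ± 1.86 and 20.2 ± 3.94 CPM (0.30, SE 0.24, FDR 0.324), a value that became -0.03 once GC content and length were offset. *Cd200* was not called in either genotype (-0.04, SE 0.28, and -0.27, SE 0.27). *Satb1* was not called in WT culture (0.16, SE 0.15, FDR 0.391), and in the KO-labelled libraries it went from 134 ± 13.7 to 59.4 ± 4.12 CPM, a fall called in all 17 alternatives (-1.18, SE 0.15, FDR 3.16e-05).

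*Havcr2* and *Lag3* started from almost no counts. In WT *Havcr2* went from 3 counts in all to 31, a ratio in CPM of 10.5 with a 95% exact counting interval of 3.29 to 53.9. In the KO-labelled libraries *Havcr2* had 0 counts in both day 0 libraries and 49 and 31 at day 5, and against a floor of 3 counts per library it was at least 18.4-fold higher. *Lag3* in WT went from 0 counts to 5 and 9, at least 2.51-fold higher against the same floor, and in the KO-labelled libraries from 2 counts in all to 8, a ratio of 6.38 with an interval of 1.27 to 61.7. Intervals and floors cover counting error only. Even at day 5, *Lag3* had no more than 2.17 CPM in a library. Its rise in WT was tested and called in 6 of 17 alternatives, those with no filter and those without KO-labelled replicate 1 or 2 of day 0, WT replicate 1 of day 5 or KO-labelled replicate 1 or 2 of day 5. With a library left out the filter admits more genes, and *Lag3* then enters through its day 5 libraries, so these calls are a description.

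**Figure D4:**
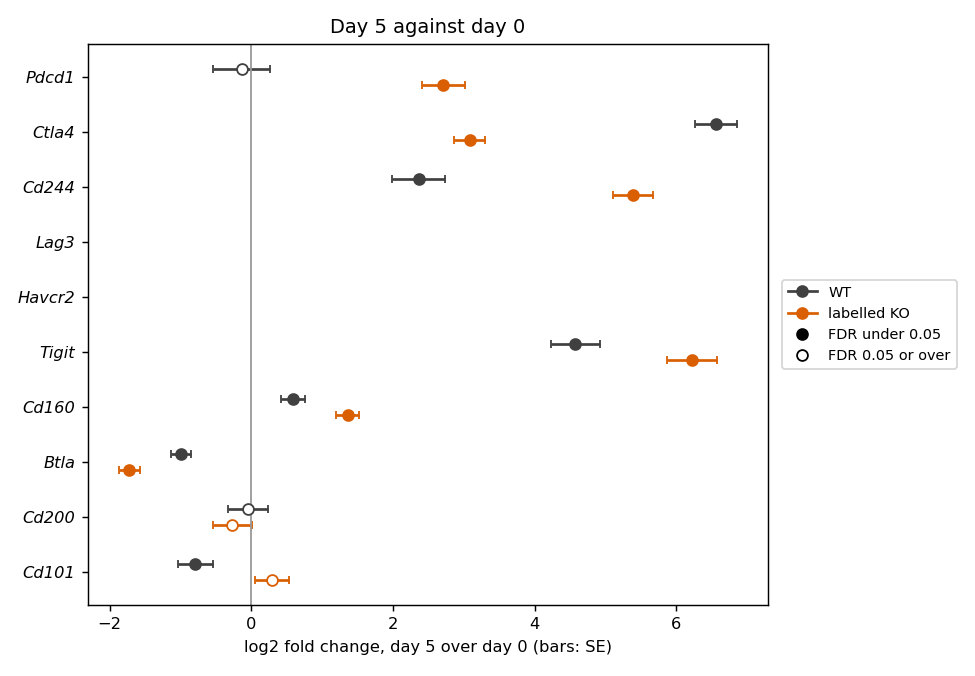
Log2 fold change of each receptor gene, day 5 over day 0, in WT and in the KO-labelled libraries, from the edgeR fit with bars of 1 SE; filled points have an FDR under 0.05. *Ctla4* and *Tigit* lie far to the right in both genotypes, *Pdcd1* is near 0 in WT (-0.13) and at 2.71 in the KO-labelled libraries, and *Btla* lies to the left in both; *Lag3* and *Havcr2* have no point because their day 0 libraries held at most 2 counts.

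The interaction took the genotype difference of day 0 from that of day 5, on the log2 scale. It was called for 1 of the 9 tested receptors, *Ctla4* (-3.47, SE 0.38, FDR 0.00794), where 0.159% of all tested genes were called, 0.0794% in each direction. The call was lost without WT replicate 1 or 2 of day 0 (FDR 0.0992 and 0.0704), and the log2 value then stayed at -3.62 and -3.37. *Pdcd1* had an interaction of 2.84 (SE 0.50, FDR 0.0548), called in 7 of 16 alternatives, and *Cd244* of 3.02 (SE 0.56, FDR 0.0565), called in 3 of 16. *Cd160* (0.77, SE 0.23, FDR 0.216), *Btla* (-0.73, SE 0.20, FDR 0.187), *Cd101* (1.09, SE 0.34, FDR 0.238), *Tigit* (1.64, SE 0.60, FDR 0.308) and *Cd200* (-0.22, SE 0.39, FDR 0.873) were not called. *Havcr2* was not called either (FDR 0.252), and its fitted value is not given because its day 0 libraries held at most 2 counts. *Lag3* was not tested. The value of *Tigit* was 0.91 without KO-labelled replicate 1 of day 0, and that of *Pdcd1* was 3.54 without WT replicate 1 of day 5. *Satb1* had an interaction of -1.34 (SE 0.21, FDR 0.0269), a call lost with the offset for GC content and length and without any of 6 libraries, all but KO-labelled replicate 2 of day 0 and WT replicate 1 of day 5.

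The other genes of the pathway were taken from lists of ligands, related receptors, signaling proteins and transcription factors. Over all tested genes, culture calls were 48.3% in WT (24.7% higher, 23.6% lower) and 50.2% in the KO-labelled libraries (26.2% higher, 24.0% lower). A gene near the floor at day 0 can pass the filter on low counts only through day 5. Rises of such genes are no support for a rise of their list. Of 17 ligands of the receptors, 12 were tested. At day 0, *Cd48*, the ligand of 2B4, was higher in the KO-labelled libraries (310 ± 26.3 against 566 ± 80.7 CPM, log2 fold change 0.87, FDR 0.00665), and *Cd86*, a ligand of CTLA-4 and CD28, was lower (86.7 ± 2.36 against 39.2 ± 9.99 CPM, -1.13, FDR 0.0143). Both calls were lost without WT replicate 1 or 2 of day 0, and that of *Cd86* also without KO-labelled replicate 2 of day 0, with log2 fold changes from 0.71 to 1.04 for *Cd48* and from -1.44 to -0.87 for *Cd86* over the alternatives. At day 5 the called ligand was *Lgals3*, the lectin galectin-3, which was higher (163 ± 37.8 against 444 ± 26.2 CPM, 1.44, FDR 0.00341, and 0.0506 without KO-labelled replicate 2). In culture, 8 rose and 2 fell in WT and 7 rose and 3 fell in the KO-labelled libraries. In both genotypes *Lgals3*, *H2-Ab1* of MHC class II, *Cd80* and *Pdcd1lg2*, a ligand of PD-1, were among those that rose, *Cd80* to no more than 5.88 CPM on average and *Pdcd1lg2* to no more than 11.8 CPM. *H2-Aa*, the other chain of the same MHC class II molecule as *H2-Ab1*, fell to 0.209 and 0.0920 CPM.

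Among 14 activating or costimulatory receptors, all tested, *Cd28* was the called gene at day 5 (339 ± 10.9 against 501 ± 33.8 CPM, 0.56, FDR 0.0327), a call that held in 10 of 17 alternatives and was lost without any 1 of the day 5 libraries or of the WT libraries of day 0. At day 0 edgeR called 0, with 2 at an unadjusted p under 0.05 and 1 called by DESeq2. In culture, 7 rose and 5 fell in WT and 8 rose and 5 fell in the KO-labelled libraries. The shares called over all tested genes were 48.3% and 50.2%. *Tnfrsf9*, which encodes the costimulator 4-1BB, rose by 7.55 and 7.25 on the log2 scale, *Tnfrsf4* (OX40) by 5.77 and 5.57, *Slamf7* by 5.47 and 4.96 and *Tnfrsf18* (GITR) by 2.46 and 2.49. Of the SLAM family, to which *Cd244* belongs, *Slamf6* fell in both genotypes (log2 fold changes -2.21 and -2.33).

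Of 16 other inhibitory receptors of lymphocytes, 13 were tested. *Klrd1*, which encodes CD94, was lower in the KO-labelled libraries at day 0 (151 ± 9.82 against 46.9 ± 1.16 CPM, -1.69, FDR 4.27e-05) and at day 5 (102 ± 0.536 against 54.1 ± 2.16 CPM, -0.91, FDR 0.00681), the second call being lost with the offset for GC content and length and without either KO-labelled library of day 5. *Cd6* was higher at day 5 (105 ± 2.104 against 179 ± 16.1 CPM, 0.77, FDR 0.00778), though not called without KO-labelled replicate 2 (FDR 0.151). In culture 4 rose and 8 fell in WT, and 4 rose and 6 fell in the KO-labelled libraries. The shares called over all tested genes were 48.3% and 50.2%. *Lilrb4a* reached 185 and 120 CPM on average, from under 1 CPM, and *Entpd1*, the ectoenzyme CD39, reached 128 and 135 CPM from 2.18 and 0.863 CPM.

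Of 15 adaptors and phosphatases, 14 were tested and 0 were called between the genotypes at either day. At an unadjusted p under 0.05 there was 1 at each day, and DESeq2 called 0 at day 0 and 1 at day 5. In culture 1 rose and 4 fell in WT, and 3 rose and 2 fell in the KO-labelled libraries. The shares called over all tested genes were 48.3% and 50.2%. *Pag1*, which holds the inhibitory kinase CSK at the membrane, fell (log2 fold changes -1.49 and -1.47), and *Ptpn22* rose by 0.79 and 0.93.

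Of 20 transcription factors known to act on receptor genes, 18 were tested. *Id3* was higher at day 0 in the KO-labelled libraries (130 ± 10.98 against 201 ± 6.25 CPM, 0.63, FDR 0.0318), a call lost without any 1 of the 4 day 0 libraries or of the KO-labelled libraries of day 5. At day 5 edgeR called 0, with 4 at an unadjusted p under 0.05 and 1 called by DESeq2. In culture 7 rose and 8 fell in WT, and 10 rose and 7 fell in the KO-labelled libraries. The shares called over all tested genes were 48.3% and 50.2%. *Irf4* rose by 4.42 and 3.97 on the log2 scale, and *Nr4a1*, an early gene of antigen receptor signaling, fell (log2 fold changes -2.71 and -2.75). *Maf* and *Tbx21* were called higher in both genotypes from averages under 1.30 CPM.

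**Figure D5:**
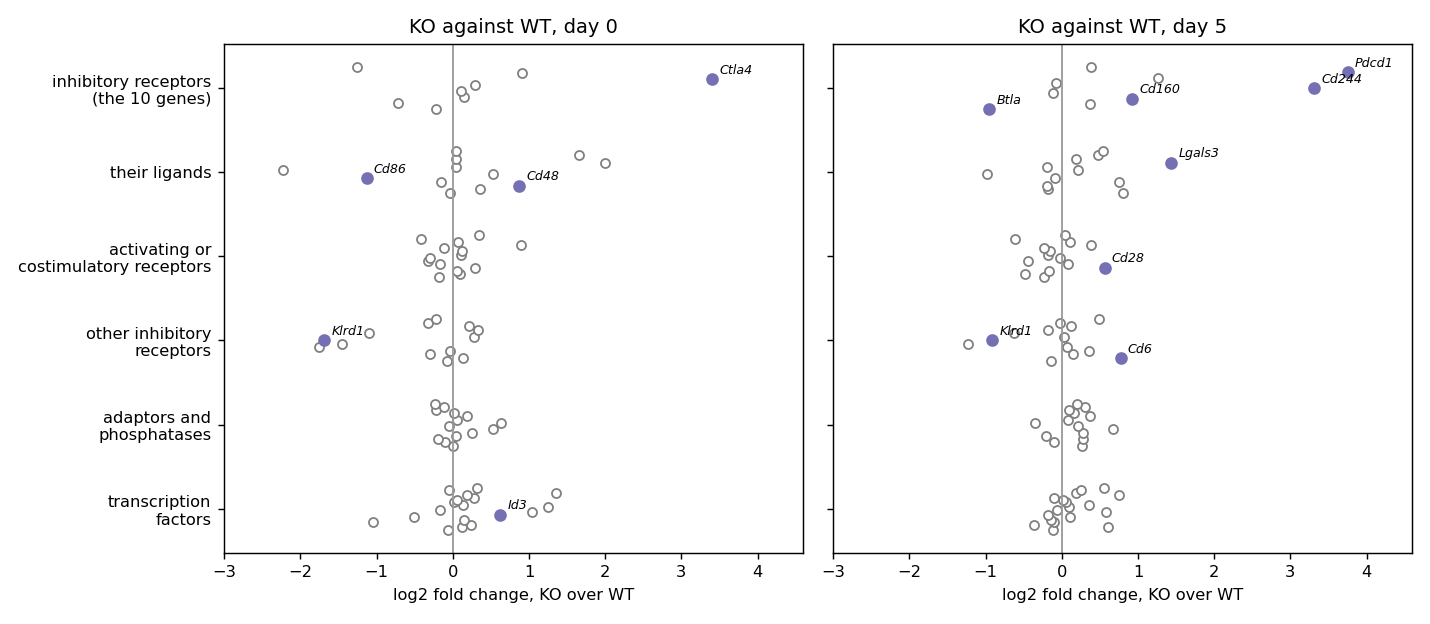
Log2 fold change, KO-labelled libraries over WT, of each tested gene of the 6 lists at day 0 (left) and day 5 (right); filled, named points have an FDR under 0.05, and the vertical spread within a row only separates points. Outside the receptor list most points lie near 0, and the 4 named receptors at day 5 include the 2 points farthest to the right. *Havcr2* is left out at day 0, where it had at most 2 counts in a library.

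Genes near the receptors were counted as a description. Within 200 kb of the 10 genes, 63 other genes were tested, and 3.17% of them were called at day 0 and 3.17% at day 5, against 1.80% and 1.63% of all genes. At day 0 these were *Cd48*, which lies 72 kb from *Cd244* and was higher, and *Eif4a-ps4* near *Ctla4*, which was lower. At day 5 they were *Cd28*, 114 kb from *Ctla4*, and *Usp5*, 75 kb from *Lag3*, both higher. *Usp5* was called in 10 of 17 alternatives and *Eif4a-ps4* in 11 of 17, and both were lost when WT replicate 1 or 2 of day 0 was left out, among other libraries. In culture 41.3% of the neighbors were called in each genotype, against 48.3% of all genes in WT and 50.2% in the KO-labelled libraries. *Pdcd1*, *Ctla4* and *Cd244* are all on chromosome 1 but far apart, by at least 33122 kb. *Btla* and *Cd200* are neighbors on chromosome 16, with 124 kb between them, and only *Btla* was called between the genotypes at day 5.

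The genes whose pattern over the 8 libraries was most like that of a called receptor were found by Pearson's r of log2 CPM among 9575 genes, as a description over libraries that share their groups and days. For *Pdcd1* these were *Chst12*, *Pkp3* and *Pygb* (r = 0.958, 0.958 and 0.954), each with its highest mean in the day 5 KO-labelled libraries. For *Ctla4* they were *Evi2a*, *Rgs1* and *Serpinb6b* (0.996, 0.995 and 0.993). *Rgs1*, a regulator of G-protein signaling, was at 10.2 and 29.7 CPM on average in WT and KO-labelled libraries before culture and at 74.7 and 82.2 CPM at day 5, the same order of groups as *Ctla4* except that the KO-labelled libraries were higher at day 5. *Cd244* and *Cd160* were each most like the other, with r = 0.986. *Csnk1d* and *Slc48a1* followed for *Cd244* (0.985 and 0.983), and *Ptger1* and *Pgpep1* for *Cd160* (0.977 and 0.974). *Btla* was most like *Slco3a1*, *Gm45055* and *Tank*, the first with r = 0.994.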

How the data were processed

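RNA of sorted splenic CD8+ T cells was sequenced in 8 libraries. Per the labels, total RNA was extracted with Trizol and libraries were made with an NEBNext Ultra RNA kit and read on a HiSeq2500. The authors deposited raw read counts per gene symbol, 1 table per library, not normalized and not pooled. The submitters' processing notes name HISAT2 2.1.0, HTSeq 0.11.1 and the mouse build mm10 (GRCm38). The annotation and the strand setting are not given in the sources used here, so reads from overlapping genes on opposite strands may not be separated. Reads assigned to genes were 21.2% to 24.5% of records, and the summary lines of the counting program were left out of all totals.

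Groups came from the labels. The 10 genes, the pathway and marker lists and the tests were chosen with earlier results of these data known. All 10 genes and *Satb1* are named in each comparison, of each list up to 4 called genes by size, and for each receptor called between genotypes or in the interaction the 3 genes most alike with at least 5 CPM on average. Symbols were matched to GENCODE M21, 46394 directly and 576 by synonym, among them *Cd244*.

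Counts were tested with edgeR 4.0.16 in R 4.3.3 (quasi-likelihood F test, TMM factors, default filter with a minimum count of 10) in 1 fit over all 8 libraries with a mean per group. The biological coefficient of variation was 15.0%. P-values were two-sided, adjusted over 12597 genes (FDR), and called under 0.05. The script was tested on simulated data. Replicates differed by more than sampling noise, their counts giving a chi-square of 4.69 to 9.40 per degree of freedom. An exact permutation of 2 against 2 libraries was not used, since it cannot reach the threshold. Alternatives were other size factors, library totals, no filter, only the compared libraries, a replicate block, the newer quasi-likelihood form, DESeq2 1.42.0, thinning to 4170126 counts, an offset for GC content and exon length (for 99.1% of genes), and leaving out each library. Some marker genes are not reported here.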

Additional observations from a re-analysis of the deposited data

Results flagged for a closer look

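Among the 10 receptors and *Satb1*, 2 genes had a genotype difference that changed between day 0 and day 5 by the test of the interaction. *Ctla4* had an interaction of -3.47 on the log2 scale (SE 0.38, FDR 0.00794 by edgeR). It stood at 31.0 CPM in the KO-labelled libraries and 2.97 CPM in WT at day 0, and at 269 and 283 CPM at day 5. *Satb1* had an interaction of -1.34 (SE 0.21, FDR 0.0269). It was higher in the KO-labelled libraries at day 0, a difference that was not called (FDR 0.125), and lower in them at day 5 (FDR 0.0162). The interaction was called in 14 of 16 alternatives for *Ctla4* and in 9 of 16 for *Satb1*.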

How the results depend on the processing

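Over 17 alternative settings, 790 of 837 values of single genes kept their direction and their side of the threshold, 23 were no longer called, 10 were newly called and 14 changed sign. Of 84 counts of called receptors, 73 stayed within 1.5 times the reported count. The fit on only the compared libraries was not made for the interaction, which uses all 8. Receptors called in WT culture were 5 to 8 when 1 library was left out, the 8 including *Lag3*. Receptors called between the genotypes at day 5 were 2 to 4 when 1 library was left out, with 2 without either KO-labelled library of that day. For the interaction, the count of 1 became 2 with library totals, 3 without a filter, 3 with DESeq2 (which called 144 genes in all, against 20 by edgeR), 2 with thinned libraries, and 0 to 3 when 1 library was left out (0 without WT replicate 1 or 2 of day 0, 2 without KO-labelled replicate 1 of day 0, 3 without WT replicate 1 of day 5). The replicate numbers of the labels are not stated to mark shared mice. Across genes, deviations of same-numbered libraries correlated at 0.118 between the days in WT, at 0.228 between the days in the KO-labelled libraries, and between -0.0742 and 0.00438 for the other 4 pairs of groups. With a replicate block the interaction was called for 2 receptors, *Ctla4* and also *Pdcd1* (2.91, FDR 0.0367). *Satb1* ranged from -0.96 to -0.70 at day 5 and from -1.49 to -1.23 in the interaction when 1 library was left out, and its interaction was -1.15 (FDR 0.0811) with the offset for GC content and length.

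The sign changes all concerned values that were not called. With the offset for GC content and length *Ctla4* at day 5 was 0.064 and *Cd101* in culture of the KO-labelled libraries was -0.027. *Cd200* in WT culture was 0.0054 with DESeq2 and 0.0303 with thinned libraries. With 1 library left out, *Cd244* at day 0 ranged from -0.0055 to 0.58, *Cd200* from -0.027 to 0.25 at day 0, from -0.53 to 0.43 at day 5, from -0.56 to 0.41 in WT culture and from -0.65 to 0.30 in the interaction, and *Pdcd1* in WT culture from -0.81 to 0.33. The cause was not tested. Depth limits *Lag3* and *Havcr2* at day 0, and *Tigit* and *Cd244* at day 0 to between 5 and 15 counts.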
